A study of Mus musculus with 11 samples.

Results

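Chemokine genes of sorted mouse beta cells were followed across the 11 libraries of the study, as 9 genes chosen by name: Cxcl10, Cxcl9, Cxcl11, Cxcl16, Cxcl1, Cxcl12, Ccl2, Ccl5 and Cx3cl1. Each was found as 1 row of the deposited tables of 55487 genes through its Ensembl identifier. Islets of C57BL/6 mice, given in the methods as adult males of a C57BL/6 substrain, were either exposed to IFNγ at 50 pg/mL during a 20 h culture or left untreated. PD-L1high beta cells (4 libraries, replicates 1 to 4) and PD-L1low beta cells (3 libraries, replicates 2 to 4) were sorted by FACS from IFNγ-treated islets according to surface PD-L1, the protein encoded by Cd274. Control beta cells (4 libraries, replicates 1 to 4) came from untreated islets. The labels name no transgene or deletion for any group. The methods state that each n was an independent biological sample, whereas the labels give a replicate number only, and libraries with the same number carry the same experiment name in the deposited files.

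Chemokines are small secreted proteins that attract leukocytes through G protein-coupled receptors. Cxcl9, Cxcl10 and Cxcl11 are ligands of Cxcr3, a receptor of activated T cells, and are the chemokine genes best known for their response to IFNγ, which induces factors such as Irf1. Cxcl1 and Ccl2, which attract neutrophils and monocytes, are better known as targets of NF-κB, a factor activated by cytokines such as TNF and IL-1. Cxcl16 and Cx3cl1 are made as transmembrane proteins that Adam10 and Adam17 can release from the cell surface. Cytokine-treated islets are a known source of Cxcl10.

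Cxcl10 and Cxcl1 are printed here because by known regulation they are an interferon type and an NF-κB type of gene, and Cxcl9 because it lies beside Cxcl10. The 3 stretches cover the RefSeq start of transcription on GRCm38.p6, 5′ to 3′ on the gene's own strand, at chr5:92348840-92349139 (minus strand) for Cxcl10, chr5:92328030-92328329 (minus strand) for Cxcl9 and chr5:90890995-90891294 (plus strand) for Cxcl1. Capitals mark matches to the interferon-stimulated response element core GAAANNGAAA, a motif bound by interferon-activated factors, and to the kappa-B form GGGANNTTCC, bound by NF-κB.
Cxcl10: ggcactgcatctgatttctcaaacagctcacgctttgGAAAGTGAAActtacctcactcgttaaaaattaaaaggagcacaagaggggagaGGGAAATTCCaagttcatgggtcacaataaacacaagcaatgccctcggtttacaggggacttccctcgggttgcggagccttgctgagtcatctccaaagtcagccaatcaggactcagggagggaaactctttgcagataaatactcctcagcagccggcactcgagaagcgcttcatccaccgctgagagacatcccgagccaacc
Cxcl9: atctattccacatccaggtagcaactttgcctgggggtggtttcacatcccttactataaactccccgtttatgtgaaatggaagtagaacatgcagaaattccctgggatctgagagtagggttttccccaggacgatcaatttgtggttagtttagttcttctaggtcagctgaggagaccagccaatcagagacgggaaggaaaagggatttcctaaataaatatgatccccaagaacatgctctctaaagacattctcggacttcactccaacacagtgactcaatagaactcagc
Cxcl1: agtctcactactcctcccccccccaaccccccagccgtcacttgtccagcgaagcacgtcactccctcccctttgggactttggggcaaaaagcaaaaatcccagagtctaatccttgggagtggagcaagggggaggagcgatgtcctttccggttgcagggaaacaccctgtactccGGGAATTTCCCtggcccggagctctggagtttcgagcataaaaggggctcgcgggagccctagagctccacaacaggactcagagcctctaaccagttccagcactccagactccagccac
The Cxcl10 window held 1 response element core at -213 to -204 and 1 kappa-B form at -159 to -150 from the start. The Cxcl1 window held 2 overlapping kappa-B matches on opposite strands, at -71 to -62 and at -70 to -61. On both strands, the same letters occurred in 3.44% of 32851 RefSeq promoter windows of this length for the response element core and in 1.47% for the kappa-B form. A further motif, the gamma-activated site TTCNNNGAA known from IFNγ-responsive genes, occurred in 8.3% of them. None of these 3 motifs was found in the Cxcl9 window or in those of Cxcl12 and Cx3cl1, and windows were matched for 5 of the 9 genes. These matches describe letters in 1 window per gene and no binding was measured. Only these exact patterns were searched, so a window without a match can still hold another form of such an element.

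The 11 libraries held 10422038 to 15810817 expected counts, and 5.55% to 13.3% of them were mitochondrial, with the highest share in control replicate 1. Levels between libraries are given as CPM (counts scaled to a common library size after TMM normalization) and levels between genes as the authors' TPM, which corrects for transcript length. All 10 beta cell markers were measured, with summed levels of 62761 to 96424 CPM per library. Of 13 macrophage and dendritic cell markers, Adgre1, Lyz2, Itgam, Aif1 and Tyrobp were at 0 in all 11 libraries, and the list summed to 4.77 to 8.83 CPM in PD-L1high, 2.73 to 6.36 CPM in PD-L1low and 4.35 to 5.62 CPM in control libraries. Ppy and Pyy, hormone genes of PP cells, summed to 233 to 562 CPM in PD-L1high, 26.8 to 33.5 CPM in PD-L1low and 150 to 382 CPM in control libraries. The 7 alpha cell markers summed to 969 to 1988 CPM in PD-L1high, 707 to 834 CPM in PD-L1low and 792 to 1874 CPM in control libraries. As a check of the sort, Cd274 averaged 218 ± 44.8 CPM in PD-L1high (SD, n = 4), 38.1 ± 8.35 CPM in PD-L1low (n = 3) and 20.4 ± 4.08 CPM in control cells (n = 4).

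Differential expression was assessed with the quasi-likelihood test of edgeR, with terms for condition and for replicate number, and p values were adjusted over the 16252 genes that passed a filter on low counts. The words rose and fell are kept for an adjusted p under 0.05. Of the 9 chemokine genes, 7 passed the filter, and Cxcl9 and Ccl5 did not. Among these 9, Cxcl10 alone rose in PD-L1high cells against control cells (background: 0.941% of tested genes rose) and against PD-L1low cells (background: 0.64% rose), and no chemokine gene fell in either comparison (0.0492% and 0.0923% of tested genes fell). No chemokine gene passed the test in PD-L1low cells against control cells, where 0.08% of all tested genes did in either direction, while 1 of the 7, Cxcl11, had an unadjusted p under 0.05. DESeq2 and limma-voom also called 0 chemokine genes there. The same control libraries serve both comparisons with untreated cells.

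Cxcl10 was also the most abundant of the 9 genes per transcript length in every group. Its mean level was 57.6 ± 43.4 TPM in PD-L1high, 5.29 ± 4.57 TPM in PD-L1low and 6.60 ± 8.61 TPM in control cells (SD, n = 4, 3 and 4). In PD-L1high cells Cxcl1 (6.82 ± 7.85 TPM), Cxcl16 (4.78 ± 2.86 TPM), Ccl2 (4.58 ± 6.20 TPM) and Cx3cl1 (2.93 ± 0.555 TPM) came next, and their ranges over libraries overlapped. Cxcl11 (1.15 ± 0.600 TPM), Cxcl12 (0.360 ± 0.472 TPM), Ccl5 (0.0600 ± 0.120 TPM) and Cxcl9 (0.0150 ± 0.0173 TPM) had lower means. In PD-L1low cells the libraries of Cxcl10 ranged from 0.74 to 9.87 TPM, around all those of Cxcl16 (3.62 ± 0.756 TPM, 2.78 to 4.25 TPM). In control cells Cxcl10 ranged from 1.01 to 19.4 TPM, around all those of Cxcl16 (4.68 ± 2.01 TPM, 3.22 to 7.53 TPM), so the first place of Cxcl10 in PD-L1low and control cells was not separated from the next gene. In PD-L1high cells the lowest Cxcl10 library (14.01 TPM) also lay below the highest Cxcl1 library (18.15 TPM), though Cxcl10 was above Cxcl1 within each library.

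**Figure D1:**
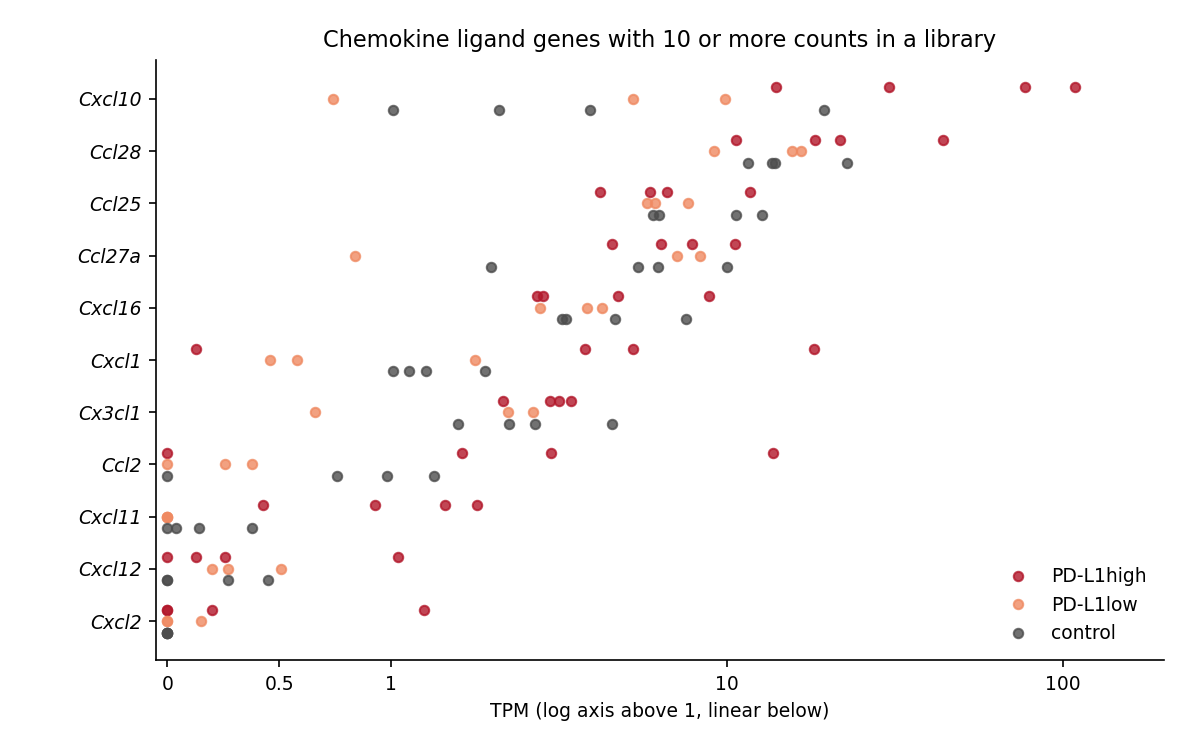
TPM of each chemokine ligand gene with at least 10 counts in a library, on an axis that is logarithmic above 1 and linear below, 1 point per library and a row of points for each group (PD-L1high above PD-L1low above control). Genes are ordered by mean TPM over the 11 libraries. Cxcl10 spans 14.0 to 108.8 TPM in PD-L1high cells, while the other chemokine genes stay below 20 TPM except Ccl28 (10.6 to 44.0 TPM in PD-L1high cells).

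Cxcl10 (ENSMUSG00000034855, chromosome 5, 92346638 to 92348889 on GRCm38, minus strand), a Cxcr3 ligand that attracts activated T cells, had 1274, 817, 375 and 147 counts in PD-L1high replicates 1 to 4, 83, 60 and 27 counts in PD-L1low replicates 2 to 4, and 322, 47, 34 and 14 counts in control replicates 1 to 4. Scaled to library size these were 82.0, 64.9, 29.5 and 15.3 CPM in PD-L1high, 6.87, 4.44 and 1.90 CPM in PD-L1low, and 25.0, 3.52, 2.05 and 1.25 CPM in control libraries. All PD-L1high libraries lay above all PD-L1low libraries (4.41% of tested genes show this separation), whereas control replicate 1 lay above PD-L1high replicate 4, so that PD-L1high and control libraries overlapped.

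The fitted level of Cxcl10 was 9.38-fold higher in PD-L1high than in control cells (95% interval 5.13 to 17.1, log2 fold change 3.23, SE 0.386, adjusted p = 0.00236) and 6.80-fold higher in PD-L1high than in PD-L1low cells (3.53 to 13.1, log2 fold change 2.76, SE 0.419, adjusted p = 0.0173). Between PD-L1low and control cells the log2 fold change was 0.47 with an interval of -0.58 to 1.52 (adjusted p = 1.00), which leaves both a lower and a higher level possible. By size of change Cxcl10 stood 42nd of the 153 genes that rose against control cells and 16th of the 104 that rose against PD-L1low cells. Its SE was larger than the median of those genes (0.169 and 0.171), and was exceeded by that of 37 and of 9 of them.

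The replicates of Cxcl10 spread more widely within a group than those of Cd274 and Irf1. The highest library of Cxcl10 was 5.37 times the lowest in PD-L1high, 3.63 times in PD-L1low and 19.9 times in control cells. For Cd274 these spreads were 1.62 times in PD-L1high, 1.54 times in PD-L1low and 1.66 times in control cells, and for Irf1 1.41 times in PD-L1high, 1.21 times in PD-L1low and 1.49 times in control cells. In each group replicate 2 was above replicate 3 and replicate 3 above replicate 4, an order shared by all 3 groups in 134 of the tested genes (0.825%). This order was taken from Cxcl10 itself, and genes with another order shared by the groups were not counted. Between libraries of the same number, the PD-L1high to control ratio of Cxcl10 was 3.28, 18.4, 14.4 and 12.2 for replicates 1 to 4. For replicates 2 to 4 the PD-L1high to PD-L1low ratio was 9.45, 6.64 and 8.05, and the PD-L1low to control ratio was 1.95, 2.16 and 1.51. All 4 PD-L1high libraries and all 3 PD-L1low libraries were therefore above the control library of their own number. The share of all tested genes with this pattern was not counted. The PD-L1low to control ratios rest on 83 against 47, 60 against 34 and 27 against 14 counts, and the fitted difference did not pass.

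**Figure D2:**
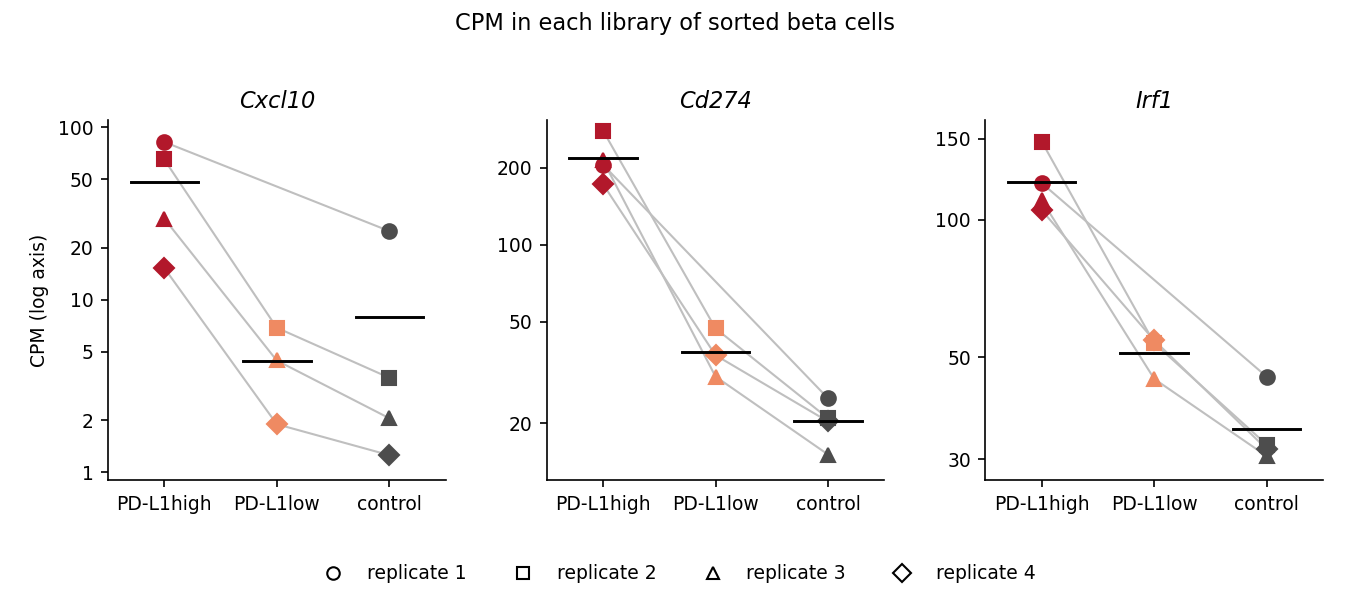
CPM of Cxcl10, Cd274 and Irf1 in each library on log axes, with PD-L1high left of PD-L1low and control, a symbol for each replicate number, grey lines joining libraries of the same number and black bars at group means. Cxcl10 spreads from 15.3 to 82.0 CPM in PD-L1high and from 1.25 to 25.0 CPM in control cells, with lines that run nearly parallel in replicates 2 to 4. Cd274 and Irf1 separate the PD-L1high libraries from all control libraries (2.68% of tested genes show this) and all PD-L1low libraries (4.41%). Cd274 encodes the protein used for the sort, so its separation is no independent result.

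Both calls of Cxcl10 rested on the replicate term. Without it the log2 fold change was 2.6 against control cells (adjusted p = 0.760) and 3.46 against PD-L1low cells (adjusted p = 0.717). The difference from control cells passed under the 19 other alternatives (adjusted p at most 0.0402). Its log2 fold change was 3.93 without control replicate 1 and 3.93 without PD-L1high replicate 1. These 2 fits are not separate checks, since under the replicate term the remaining replicate 1 library adds nothing to the difference. The difference from PD-L1low cells did not pass without PD-L1high replicate 3 (adjusted p = 0.127), PD-L1high replicate 4 (0.0834), PD-L1low replicate 2 (0.277), PD-L1low replicate 3 (0.0967) or PD-L1low replicate 4 (0.189), although the log2 fold change stayed between 2.66 and 2.90 in these fits. Library facts beside the call were the mitochondrial share of control replicate 1 (13.3%) and the higher PP and alpha cell marker sums of PD-L1high over PD-L1low libraries, and their part in the result was not tested. In bulk libraries fewer expressing cells and less RNA per cell cannot be told apart. TPM values of Cxcl10 also carry the authors' effective length, which was 1999.72 bases in PD-L1low replicate 4 and 865.73 bases in PD-L1high replicate 1.

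**Figure D3:**
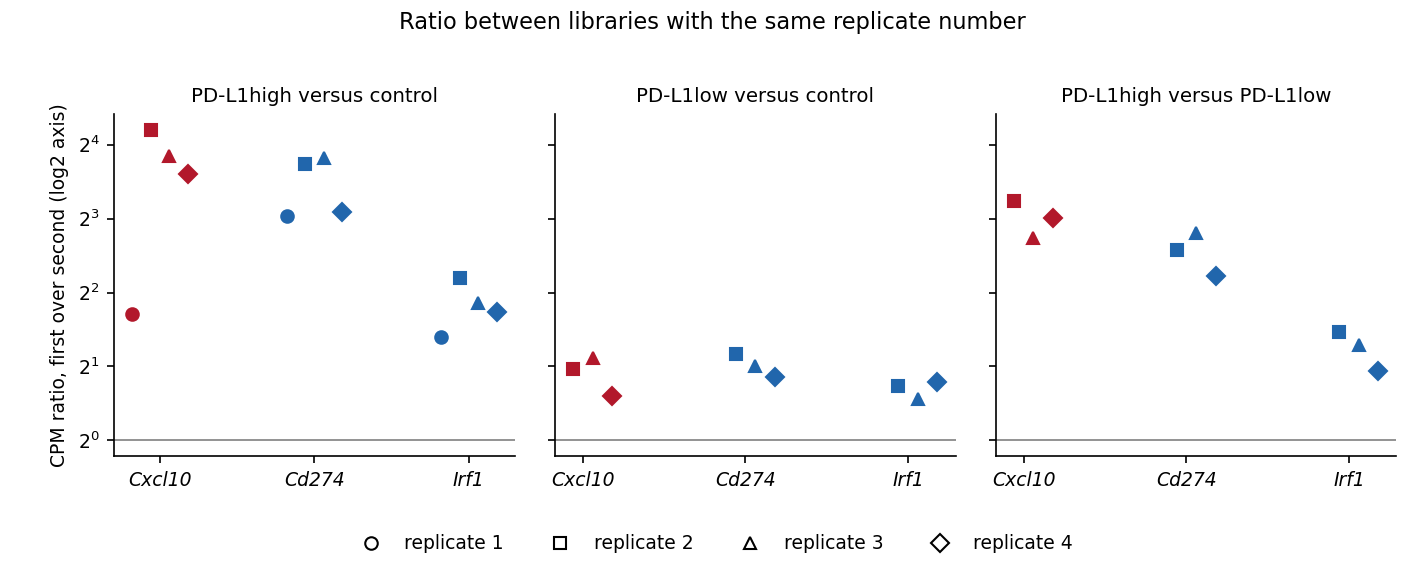
Ratio of CPM between libraries of the same replicate number for Cxcl10 (red) and, for reference, Cd274 and Irf1 (blue), on a log2 axis with a line at equal levels, 1 panel per comparison. Every ratio shown is above 1. Cxcl10 is 3.28 to 18.4 times higher in PD-L1high than in control libraries and 6.64 to 9.45 times higher than in PD-L1low libraries. It is 1.51 to 2.16 times higher in PD-L1low than in control libraries, a difference of Cxcl10 that did not pass the test.

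Cxcl11 (ENSMUSG00000060183, chromosome 5, 92359544 to 92365485, minus strand), a Cxcr3 ligand whose C57BL/6 allele is known to carry a frameshift and which GENCODE lists as a polymorphic pseudogene, was present in all 4 PD-L1high libraries at low counts. It had 34, 23, 8 and 14 counts in PD-L1high replicates 1 to 4, 0 in each of the 3 PD-L1low libraries, and 1, 7, 3 and 0 counts in control replicates 1 to 4. These correspond to 2.19, 1.83, 0.629 and 1.45 CPM in PD-L1high and 0.0776, 0.525, 0.181 and 0 CPM in control libraries, so that every PD-L1high library lay above every control library (2.68% of tested genes) and every PD-L1low library. Pooled over libraries, the level was 1.57 CPM in PD-L1high cells (exact Poisson 95% interval 1.24 to 1.95), 0 in PD-L1low cells, where 3 counts over the group would be 0.0753 CPM, and 0.204 CPM (0.102 to 0.365) in control cells. The pooled PD-L1high level was 20.8 times that floor. This ratio is not a lower bound, since the exact Poisson 95% interval of the PD-L1low level reached 0.0926 CPM and spread between replicates was not included.

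None of the 3 tests of Cxcl11 passed over all genes. The log2 fold change of PD-L1high over control cells was 3.06 (SE 1.09, unadjusted p = 0.0126, adjusted p = 0.439), and the adjusted p of PD-L1high against PD-L1low cells was 0.117. PD-L1high against PD-L1low had a result for Cxcl11 in only 15 of the 20 alternatives and passed in 3. These were without the filter on low counts (adjusted p = 0.00532), with DESeq2 (0.0038) and with limma-voom (0.0370). Over the 15 alternatives the adjusted p reached 0.535. Cxcl11 passed the filter through its PD-L1high libraries. Intervals of pooled counts cover counting error only, since reads amplified by PCR are not independent molecules.

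Cxcl9 (ENSMUSG00000029417, chromosome 5, 92321347 to 92328079, minus strand), the remaining Cxcr3 ligand, was close to absent from the counts. It had 1, 1, 0 and 0 counts in PD-L1high replicates 1 to 4 and 0 counts in every PD-L1low and control library. The pooled level was 0.0396 CPM in PD-L1high cells (exact Poisson 95% interval 0.0048 to 0.143), and 3 counts would have been 0.0753 CPM in PD-L1low and 0.0556 CPM in control cells. An exact two-sided permutation test gave p = 0.429 against control and 0.571 against PD-L1low libraries. Only 2 libraries held a count, both PD-L1high, so no lower p was possible for a higher PD-L1high level. The test therefore could not decide whether Cxcl9 differed. A difference of Cxcl9 between the groups was not detectable at this depth. Cxcl9, Cxcl10 and Cxcl11 lie on 1 strand within 44139 bases, and over this stretch Cxcl10 held 2613 counts, Cxcl11 79 and Cxcl9 2 in the 4 PD-L1high libraries together. Art3 overlaps Cxcl10 and Cxcl11 on the other strand and had 62 counts in the 11 libraries. Libraries kept strand information, but the strand setting of the counting is not given in the sources used here.

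Cxcl1 (ENSMUSG00000029380, chromosome 5, 90891241 to 90893115, plus strand), a Cxcr2 ligand that attracts neutrophils, had 180, 47, 38 and 1 counts in PD-L1high replicates 1 to 4, 5, 17 and 6 counts in PD-L1low replicates 2 to 4, and 16, 20, 12 and 9 counts in control replicates 1 to 4. These were 11.6, 3.74, 2.99 and 0.104 CPM in PD-L1high, 0.414, 1.26 and 0.421 CPM in PD-L1low, and 1.24, 1.5, 0.725 and 0.806 CPM in control libraries. The PD-L1high libraries held both the highest and the lowest value of all 11, so the groups overlapped. The log2 fold change was 1.46 (95% interval -0.12 to 3.04, adjusted p = 0.681) against control cells and 1.71 (-0.12 to 3.54, adjusted p = 0.613) against PD-L1low cells, and -0.25 for PD-L1low over control cells. Leaving out 1 library at a time gave 0.75 (without PD-L1high replicate 1) to 2.08 against control cells and 1.08 (without PD-L1low replicate 2) to 2.39 against PD-L1low cells. Against control cells Cxcl1 passed in 1 alternative, limma-voom (log2 fold change 2.19, adjusted p = 0.0216, against adjusted p values of up to 1.00 in the other alternatives).

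Ccl2 (ENSMUSG00000035385, chromosome 11, 82035571 to 82037453, plus strand), a Ccr2 ligand that attracts monocytes, was likewise highest in PD-L1high replicate 1. It had 110, 11, 24 and 0 counts in PD-L1high replicates 1 to 4, 0, 2 and 4 counts in PD-L1low replicates 2 to 4, and 10, 6, 13 and 0 counts in control replicates 1 to 4. PD-L1high replicate 1 reached 7.08 CPM, and no other library exceeded 1.89 CPM. The log2 fold change was 1.65 (95% interval -0.57 to 3.86, adjusted p = 0.758) against control cells and 2.18 (-0.97 to 5.34, adjusted p = 0.734) against PD-L1low cells. Leaving out 1 library at a time gave 1.04 to 2.18 against control cells. The value of 1.04 came both without PD-L1high replicate 1 and without control replicate 1, nearly the same fit under the replicate term. Against PD-L1low cells leaving out 1 library gave 0.96 to 4.47, with 1.07 without PD-L1low replicate 2, 0.96 without PD-L1low replicate 3 and 4.47 without PD-L1low replicate 4. In PD-L1high replicate 1, the macrophage and dendritic cell markers summed to 5.92 CPM, within the range of the other PD-L1high libraries. The 6 duct cell markers summed to 808 CPM there, against 394 to 494 CPM in the other PD-L1high, 521 to 579 CPM in PD-L1low and 422 to 569 CPM in control libraries, and their part in the values of Cxcl1 and Ccl2 was not tested. Among these markers Spp1 reached its highest level of the 11 libraries (466 CPM) in PD-L1high replicate 1, while Sox9 and Cftr held 2 counts each over all 11. Cxcl2, a Cxcr2 ligand like Cxcl1 that was looked at after its values were seen, had 15 counts in PD-L1high replicate 1 and at most 2 in any other library.

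**Figure D4:**
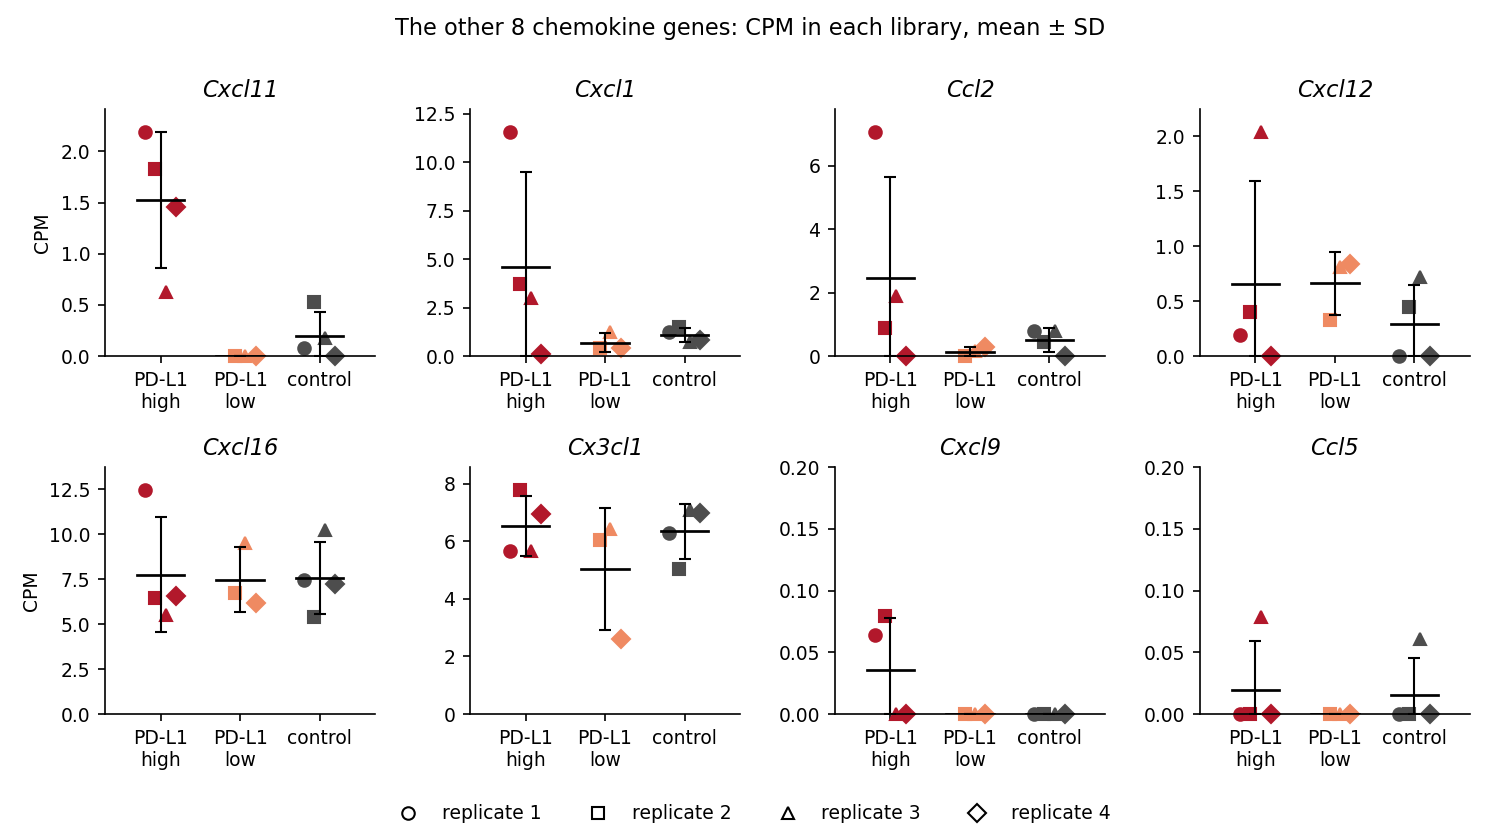
CPM of the other 8 chemokine genes in each library, with PD-L1high left of PD-L1low and control, a symbol for each replicate number, and bars at mean ± SD (n = 4, 3 and 4). The axes start at 0 and differ between genes. Cxcl11 is above its control values in all 4 PD-L1high libraries, and Cxcl9 and Ccl5 stay below 0.1 CPM in every library. Cxcl1 and Ccl2 are highest in PD-L1high replicate 1. PD-L1high replicates 2 and 3 also lie above every control and PD-L1low library for both genes, while replicate 4 is at 0.104 and 0 CPM. Neither gene passed the edgeR test.

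Cxcl12, a Cxcr4 ligand, and Ccl5, which attracts T cells and monocytes, were low in all groups. Cxcl12 (ENSMUSG00000061353, chromosome 6, 117168535 to 117181367, plus strand) had 3, 5, 26 and 0 counts in PD-L1high replicates 1 to 4, 4, 11 and 12 counts in PD-L1low replicates 2 to 4, and 0, 6, 12 and 0 counts in control replicates 1 to 4. Its log2 fold changes of 1.05, 1.49 and -0.44 in PD-L1high over control, PD-L1low over control and PD-L1high over PD-L1low cells had intervals that all held 0. Ccl5 (ENSMUSG00000035042, chromosome 11, 83525778 to 83530518, minus strand) had 1 count in PD-L1high replicate 3, 0 in PD-L1low libraries and 1 count in control replicate 3. An exact two-sided permutation test gave p = 1 in each comparison, but with at most 1 count in a group it could not show a difference. The pooled level of Ccl5 was 0.0198 CPM in PD-L1high cells (exact Poisson 95% interval 0.000502 to 0.110) and 0.0185 CPM in control cells (0.000469 to 0.103), and 3 counts would have been 0.0753 CPM in PD-L1low cells.

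The transmembrane chemokines Cxcl16, a Cxcr6 ligand, and Cx3cl1, a Cx3cr1 ligand, were counted in every library and showed no change that passed the test. Cxcl16 (ENSMUSG00000018920, chromosome 11, 70453983 to 70459984, minus strand) had 12.5, 6.44, 5.50 and 6.54 CPM in PD-L1high, 6.71, 9.54 and 6.18 CPM in PD-L1low, and 7.45, 5.40, 10.3 and 7.26 CPM in control libraries. It averaged 7.74 ± 3.20 CPM in PD-L1high, 7.47 ± 1.81 CPM in PD-L1low and 7.59 ± 2.01 CPM in control cells (SD, n = 4, 3 and 4), and the libraries of the groups overlapped. The log2 fold change was -0.00 for PD-L1high over control cells with an interval of -0.58 to 0.58, and -0.10 for PD-L1high over PD-L1low cells with an interval of -0.77 to 0.56. Changes of Cxcl16 beyond these bounds lie outside the 95% intervals, and smaller ones do not.

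Cx3cl1 (ENSMUSG00000031778, chromosome 8, 94772009 to 94782427, plus strand) had 5.67, 7.79, 5.66 and 6.96 CPM in PD-L1high, 6.04, 6.43 and 2.60 CPM in PD-L1low, and 6.28, 5.02, 7.07 and 6.99 CPM in control libraries. Apart from PD-L1low replicate 4 all libraries lay between 5.02 and 7.79 CPM. The log2 fold change was 0.03 (-0.63 to 0.69, adjusted p = 0.991) for PD-L1high over control cells, -0.42 (-1.17 to 0.34, adjusted p = 1.00) for PD-L1low over control cells and 0.45 (-0.30 to 1.20, adjusted p = 0.775) for PD-L1high over PD-L1low cells. The direction of Cxcl16 and Cx3cl1 against control cells changed in some alternatives, with no call in any of them. Zmynd15 overlaps Cxcl16 on the other strand along 552 bases and had 139 counts in the 11 libraries, against 1125 for Cxcl16.

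**Figure D5:**
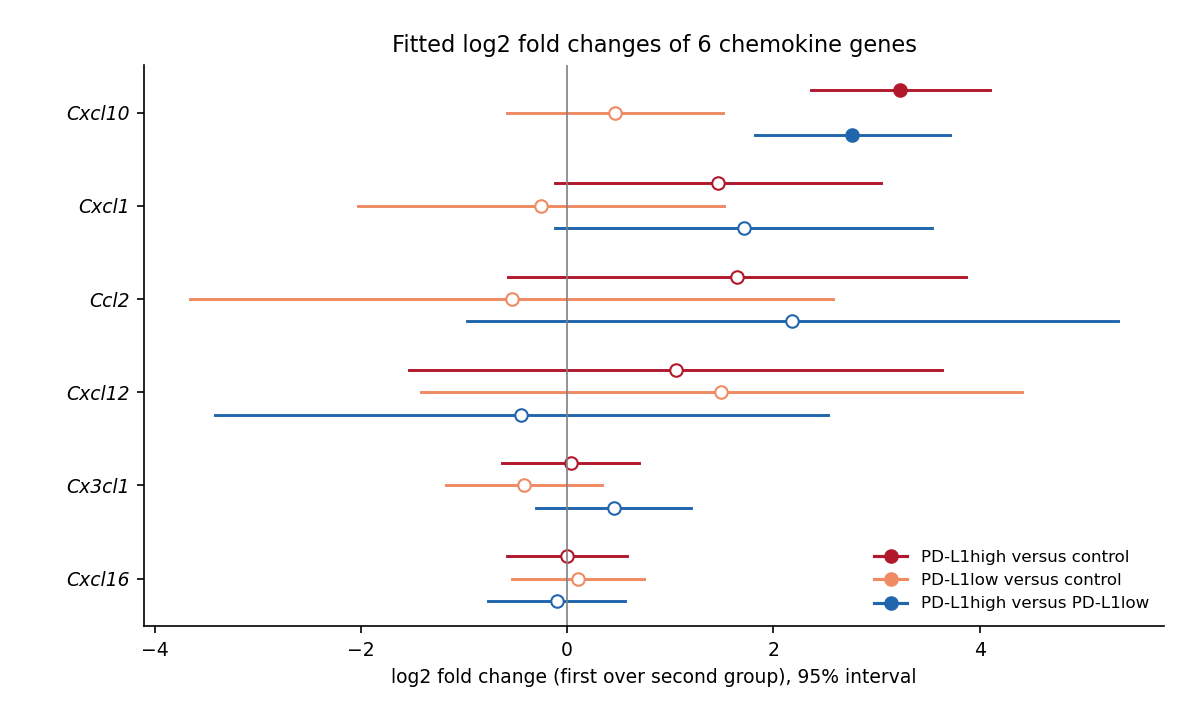
Fitted log2 fold changes with 95% intervals for 6 of the 7 tested chemokine genes, with PD-L1high versus control above PD-L1low versus control above PD-L1high versus PD-L1low for each gene. Filled points passed an adjusted p under 0.05 and open points did not. Only the 2 comparisons of Cxcl10 with PD-L1high cells are filled (3.23 and 2.76). Cxcl11 is left out because its PD-L1low libraries were all at 0.

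The rest of the chemokine system was counted from lists of known genes. Of 29 other mouse chemokine ligands, 20 had no count in any library, 3 passed the filter and 0 of these were called in any comparison by edgeR, DESeq2 or limma-voom. With edgeR none had an unadjusted p under 0.05, and with limma-voom 2 did in PD-L1high over control cells. The median log2 fold change of the 3 was -0.34 in PD-L1high over control, -0.01 in PD-L1low over control and 0.28 in PD-L1high over PD-L1low cells, beside -0.02, 0.00 and -0.00 for all tested genes. Ccl28, a mucosal chemokine for Ccr10 and Ccr3, was the most abundant of them, at 76.5 ± 36.6 CPM in PD-L1high, 49.1 ± 7.84 CPM in PD-L1low and 55.7 ± 18.4 CPM in control cells. Per transcript length its mean was 23.6 TPM in PD-L1high, 13.8 TPM in PD-L1low and 15.5 TPM in control cells, below Cxcl10 in PD-L1high cells (57.6 TPM) and above it in PD-L1low (5.29 TPM) and control cells (6.60 TPM). Ccl25, a Ccr9 ligand, averaged 12.7 ± 4.39 CPM in PD-L1high, 13.3 ± 2.12 CPM in PD-L1low and 17.1 ± 9.77 CPM in control cells.

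Receptors and processing enzymes of chemokines were also below the threshold. Of 22 receptor genes, 10 had no count in any library, among them Cxcr3, and 4 passed the filter. By edgeR, DESeq2 and limma-voom 0 of the 4 were called in any comparison, and with edgeR 2, 0 and 1 had an unadjusted p under 0.05 in PD-L1high over control, PD-L1low over control and PD-L1high over PD-L1low cells. Ccrl2, an atypical receptor, had 9.85, 10.2, 8.65 and 9.03 CPM in PD-L1high, 4.89, 4.88 and 6.81 CPM in PD-L1low, and 4.03, 5.92, 4.29 and 6.81 CPM in control libraries. Its PD-L1high libraries lay above all control libraries (2.68% of tested genes show this) and above all PD-L1low libraries (4.41%). The log2 fold changes of 0.87 against control (unadjusted p = 0.00335, adjusted p = 0.209) and 0.83 against PD-L1low cells (adjusted p = 0.393) did not pass. Cxcr6, the receptor of Cxcl16, had a log2 fold change of -1.77 in PD-L1high over control cells (adjusted p = 0.534). The median over the 4 receptors was -0.20, -0.21 and 0.08 in PD-L1high over control, PD-L1low over control and PD-L1high over PD-L1low cells. Among 6 proteases, 3 passed the filter, and 0 of them were called or had an unadjusted p under 0.05 with edgeR, DESeq2 or limma-voom. Adam10 averaged 129.9 ± 13.2 CPM in PD-L1high, 121 ± 8.39 CPM in PD-L1low and 114 ± 21.0 CPM in control cells. Dpp4, a peptidase that trims Cxcl10, averaged 142 ± 22.3 CPM in PD-L1high, 153 ± 6.19 CPM in PD-L1low and 149 ± 22.2 CPM in control cells. The protease medians were 0.14 in PD-L1high over control, -0.06 in PD-L1low over control and 0.08 in PD-L1high over PD-L1low cells.

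Genes of IFNγ signalling were measured beside Cxcl10. Of 8 such genes, all tested, 3 rose in PD-L1high over control cells, 0 in PD-L1low over control cells and 3 in PD-L1high over PD-L1low cells, and none fell. Of all tested genes 0.941% rose in PD-L1high over control and 0.64% in PD-L1high over PD-L1low cells, and 0.08% passed in either direction in PD-L1low over control cells. With edgeR 5 of the 8 had an unadjusted p under 0.05 in PD-L1high over control, 3 in PD-L1low over control and 3 in PD-L1high over PD-L1low cells. In PD-L1low over control cells DESeq2 called 2 and limma-voom 0. Without the replicate term 2 rose in PD-L1high over control and 1 in PD-L1high over PD-L1low cells. Irf1, a transcription factor induced by IFNγ, rose by 1.80 on the log2 scale over control cells (adjusted p = 7.19e-07) and by 1.17 over PD-L1low cells (0.000446) in PD-L1high cells. Irf9, which works with Stat2 in a complex that binds the response element above, rose by 1.61 (2.7e-05) over control and 0.84 (0.0383) over PD-L1low cells. Stat2 rose by 1.88 (0.000265) over control and 1.11 (0.042) over PD-L1low cells. The median log2 fold change of the 8 genes was 0.98 in PD-L1high over control, 0.26 in PD-L1low over control and 0.58 in PD-L1high over PD-L1low cells. Ifngr1 and Ifngr2, the receptor chains, had log2 fold changes of 0.31 and 0.16 against control cells that did not pass. Control replicate 1, the control library with the most Cxcl10, was also the highest control library for Stat2 (64.5 CPM, against 20.7 to 23.6 CPM in the other 3) and Irf1 (45.4 CPM, against 30.4 to 32.2 CPM), and the part of this in the Cxcl10 comparisons was not tested.

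Of 14 NF-κB genes, all tested, 1 rose in PD-L1high over control cells, 0 passed in PD-L1low over control cells and 1 rose in PD-L1high over PD-L1low cells. Of all tested genes the share was 0.941% for a rise in PD-L1high over control, 0.08% for either direction in PD-L1low over control and 0.64% for a rise in PD-L1high over PD-L1low cells. With edgeR 7 of the 14 had an unadjusted p under 0.05 in PD-L1high over control, 1 in PD-L1low over control and 7 in PD-L1high over PD-L1low cells. In PD-L1low over control cells DESeq2 and limma-voom called 0. In PD-L1high over control cells DESeq2 called 3, limma-voom 4 and the model without the replicate term 0. Nfkb2, an NF-κB subunit, had 21.3, 12.6, 13.9 and 8.20 CPM in PD-L1high, 9.27, 8.36 and 5.62 CPM in PD-L1low, and 7.45, 7.5, 5.74 and 5.73 CPM in control libraries, with a log2 fold change of 1.03 against control cells (SE 0.223, adjusted p = 0.0389). Ikbkg, the regulatory subunit of the IκB kinase, was 0.75 higher on the log2 scale in PD-L1high than in PD-L1low cells (SE 0.111, adjusted p = 0.0024). The median log2 fold change of the 14 genes was 0.38 in PD-L1high over control, -0.02 in PD-L1low over control and 0.42 in PD-L1high over PD-L1low cells. PD-L1high replicate 1, the library with the most Cxcl1 and Ccl2, also had the most Nfkb2. Of this list Rela, Rel, Nfkbib, Ikbkb and Chuk were highest in other libraries and the remaining genes in this one. The part of this in the values of Cxcl1 and Ccl2 was not tested.

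The genes whose pattern over the 11 libraries was most like that of Cxcl10 were sought by the root-mean-square difference of log2 CPM, each gene centred on its mean. Gbp5, a guanylate-binding protein gene, was nearest (0.63), followed by Apol9a (0.82), Ifit3b (0.83), Ifit3 (0.86) and AC119228.1 (0.87), where Cxcl10 itself varied by 1.97 around its mean. Gbp5 averaged 38.0 CPM in PD-L1high, 5.31 CPM in PD-L1low and 4.64 CPM in control cells. The nearest genes to Cxcl11 were H2-T23 (0.72), Nlgn1 (0.78) and Psmb10 (0.84). Cxcl1 was nearest to Birc3 (0.67), Zc3h12a (0.74) and Tnfaip3 (0.78), and Ccl2 to Birc3 (0.88), Cfb (0.92) and Il4i1 (0.93). Cxcl16 was nearest to Cpne8 (0.23), Clcn6 (0.24) and Frmd4a (0.24), Cx3cl1 to Ercc2 (0.17), Bsn (0.17) and Fbrs (0.18), and Cxcl12 to Hist1h2ab (0.70), Ednra (0.73) and AW011738 (0.78). These distances share libraries and depth and are a description.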

How the data were processed

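The authors sequenced RNA of FACS-sorted beta cells as paired reads, using random priming, a strand-specific protocol and removal of ribosomal RNA. They aligned the reads by STAR 2.5.2b (GRCm38.p6, GENCODE M23) and quantified genes by RSEM, whose version is not given in the sources used here. Use of molecular identifiers is not given either. The authors deposited RSEM expected counts (not normalized) and TPM per gene, and DESeq2 1.32.0 and STAR are named in the submitters' processing notes. The deposited FPKM were not used.

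Expected counts were rounded, which changed a library total by at most 0.000388%. Symbols and positions came from GENCODE M21 on GRCm38, promoter windows from RefSeq on GRCm38.p6. With R 4.3.3, edgeR 4.0.16 (filterByExpr, count minimum 10, TMM, robust quasi-likelihood fit) was run on 16252 genes with condition and replicate number as terms, this number standing for the batch term of the study's methods. Adjustment followed Benjamini and Hochberg. CPM are TMM-scaled, and log2 CPM for likeness used a prior count of 2. Intervals of pooled counts are exact Poisson, and a floor is 3 counts. Python 3.11.15, pandas 2.3.3, scipy 1.17.1, numpy 2.4.6 and matplotlib 3.10.9 were used for the remaining steps.

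Same-numbered libraries deviated from their group means with correlations of -0.33 to 0.41 (median 0.12), others with -0.35 to 0.33 (median -0.04). The numbers stand for an experiment name shared by the deposited files. No 2 libraries of 1 group agreed within sampling noise. The members and the gene lists were chosen with earlier results of these data known. All 9 members are named, with every called gene of each list or else its 2 most abundant genes, Cd274, and the 5 (Cxcl10) or 3 nearest genes in pattern. Genes of 2 lists are not all reported here. Further genes named in the text were chosen after their values were seen. As alternatives the model was run with no replicate term, RLE or upper quartile scaling, no or a stricter filter (count minimum 30), DESeq2 1.42.0, limma-voom (limma 3.58.1), only the 2 groups compared, and leaving out each library. Leaving out both replicate 1 libraries was added after seeing the data. Replicate 1 has no PD-L1low library, so under the replicate term leaving out either or both of its libraries gives nearly the same fit.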

Additional observations from a re-analysis of the deposited data

Results flagged for a closer look

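In 14 groups of 4 libraries, the gap of the highest or lowest library to the next was set against the range of the group. At a level that chance reaches in about 1 of 20 groups of normally distributed values, 2 groups stood out. CPM were used without a log scale, so this rate need not hold for them. Cxcl10 in control cells had its highest value in replicate 1, at 24.97 CPM, and the gap to the next library was 0.904 of the range of that group. The same library was the highest control library for Stat2 and Irf1. Cxcl16 in PD-L1high cells had its highest value in replicate 1, at 12.49 CPM, with a gap of 0.851 of the range.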

How the results depend on the processing

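Cxcl10 rose in PD-L1high over control cells under 19 of 20 alternatives and over PD-L1low cells under 14 of 20. Both calls of Cxcl10 needed the replicate block, the term for the shared replicate number. With no replicate block its log2 fold changes were 2.6 and 3.46, edgeR called 0 chemokine genes in both comparisons (3 and 4 had an unadjusted p under 0.05), and Cxcl10 in PD-L1low over control was -0.86. Chemokine genes called numbered 2 with limma-voom against control cells (Cxcl1 added at 2.19), and 2 with no filter, DESeq2 or limma-voom in PD-L1high over PD-L1low cells (Cxcl11 added, with 0 counts in every PD-L1low library). Leaving out 1 library gave 0 to 1 called in that comparison, with Cxcl10 at 2.44 to 3.00. The cause was not tested.

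Counts of all called genes were 161, 13 and 119 in PD-L1high over control, PD-L1low over control and PD-L1high over PD-L1low cells. They were 328, 91 and 354 with no filter, 249, 47 and 202 with DESeq2, 245, 27 and 180 with limma-voom, and 110 to 269, 8 to 43 and 64 to 143 when 1 library was left out. The counts moved by over 1.5 times without control replicate 2 (269 in PD-L1high over control), without PD-L1high replicate 1, PD-L1low replicate 2 or control replicate 1 (41, 8 and 43 in PD-L1low over control), and without PD-L1high replicates 2 or 3 or PD-L1low replicates 2, 3 or 4 (76, 64, 77, 78 and 78 in PD-L1high over PD-L1low). PD-L1low over control gave 33 with only the 2 groups and 43 without both replicate 1 libraries.

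Uncalled changes near 0 took the other sign. Cxcl16 in PD-L1high over control was 0.0311 with no replicate block, 0.0218 with limma-voom and 0.00204 with only the 2 groups, in PD-L1low over control -0.0244 with no replicate block, -0.00958 with only the 2 groups and -0.0189 without both replicate 1 libraries, and in PD-L1high over PD-L1low 0.0554 with no replicate block. Cx3cl1 in PD-L1high over control was -0.00944 with upper quartile scaling. With limma-voom Cxcl10 was -0.15 and Cxcl1 0.22 in PD-L1low over control, and Cxcl12 0.51 in PD-L1high over PD-L1low. Over single libraries left out, Cxcl16 ranged from -0.27 to 0.26, -0.0258 to 0.344 and -0.24 to 0.19 in PD-L1high over control, PD-L1low over control and PD-L1high over PD-L1low, Cx3cl1 from -0.15 to 0.20 in PD-L1high over control, Cxcl1 from -0.76 to 0.48 in PD-L1low over control, Ccl2 from -2.65 to 0.71 in PD-L1low over control and Cxcl12 from -1.73 to 1.1 in PD-L1high over PD-L1low. Counts below 10 in a library limit Cxcl9, Ccl5, Cxcl11, Cxcl12, Ccl2 and Cxcl1.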
